A study of Homo sapiens with 12 samples.

Results

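The miR-200 family comprises 5 mature miRNAs, hsa-miR-200b-3p, hsa-miR-200a-3p, hsa-miR-429, hsa-miR-200c-3p and hsa-miR-141-3p, chosen by name from the 2652 mature miRNAs in the data. They were followed in Huh7 cells, a human hepatocellular carcinoma line, by SLAMseq, in which 4-thiouridine (4SU) taken up into new RNA is read after chemical conversion as a T>C change. Each of 4 independent experiments gave 3 libraries with the same replicate number. The Control cells had DMSO and no 4SU, the DMSO cells had DMSO with 500 µM 4SU, and the PlaB cells had the splicing inhibitor pladienolide B with 500 µM 4SU, for 4 h in each case. The PlaB concentration is 1 µM in the study's methods and 500 µM in the sample labels. Single libraries held 1522210 to 3880241 miRNA reads. DMSO replicates 1 and 2 combine 3 sequencing runs each, of the original library, a newly prepared library and the re-amplified original library.

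As background, the miR-200 miRNAs are hallmarks of epithelial cells. They repress ZEB1 and ZEB2, transcription factors that silence E-cadherin, and ZEB1 and ZEB2 in turn repress the miR-200 genes, a loop that keeps cells epithelial or mesenchymal. The family is encoded at 2 loci, each of which is transcribed as a long primary transcript and cut by Drosha and Dicer to the mature miRNAs.

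The mature sequences are shown because the 2 seed groups cross the 2 loci. They are from RefSeq (GRCh38.p14) and are written 5′ to 3′ with the seed, bases 2 to 8, in capitals. All lie on the plus strand.
miR-200b-3p: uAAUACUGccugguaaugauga
miR-200c-3p: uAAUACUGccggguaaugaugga
miR-429: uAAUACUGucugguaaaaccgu
miR-200a-3p: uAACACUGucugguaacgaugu
miR-141-3p: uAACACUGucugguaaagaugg
The first 3 share the seed AAUACUG and the last 2 share AACACUG. Each seed group has a member from both loci. Counted from base 1 at the 5′ end, miR-200b-3p and miR-200c-3p differ by U11G and A22G, besides 1 more base at the end of miR-200c-3p, and miR-200a-3p and miR-141-3p differ by C17A and U22G. No difference in either pair exchanges U and C, so a T>C change alone does not turn one of these partners into the other. The members hold 6 or 7 U bases at which a conversion can be counted, and 0 to 0.906% of a member's reads mapped to several places.

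The chromosome 1 locus encodes miR-200b-3p (chr1:1167160-1167181), miR-200a-3p (chr1:1167916-1167937) and miR-429 (chr1:1169055-1169076). No other GENCODE version 44 gene overlaps their hairpins, and RefSeq places them in the lncRNA gene MIR200BHG (chr1:1162877-1170338). The chromosome 12 locus encodes miR-200c-3p (chr12:6963742-6963764) and miR-141-3p (chr12:6964155-6964176). In GENCODE version 44 both hairpins lie in the single intron of the 2-exon lncRNA gene MIR200CHG (chr12:6963226-6964447), whose exons are chr12:6963226-6963348 and chr12:6964201-6964447.

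Levels are given in CPM, reads scaled to a library of 1000000 miRNA reads. Huh7 cells carried the hepatocyte miRNAs in bulk, and the 5 hepatocyte markers (miR-122-5p and -3p, miR-192-5p, miR-194-5p and miR-148a-3p) summed to between 117601 and 166592 CPM in a library. Of 12 markers of blood, endothelial, smooth muscle, muscle and neural cells, 3 had a mean of at least 10 CPM (miR-126-3p, miR-143-3p and miR-145-5p) and the 12 summed to between 487 and 763 CPM. Most of this sum was the endothelial marker miR-126-3p, with a mean of 494 CPM. Of 6 other miRNAs of epithelial cells, 4 passed this mean level, miR-182-5p, miR-183-5p, miR-96-5p and miR-375-3p. The skin and squamous epithelium miRNAs miR-203a-3p and miR-205-5p did not, with 0 to 8.16 CPM and no read in any of the 12 libraries, respectively.

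In steady-state level miR-200b-3p led the family, with 528 to 1325 CPM over the 12 libraries and rank 77 of 2652 by its mean of 805 CPM. miR-200c-3p had a mean of 189 CPM (161 to 224), miR-200a-3p 151 CPM (76.6 to 258), miR-429 94.6 CPM (61.2 to 160) and miR-141-3p 20.3 CPM (6.10 to 35.1). The lowest miR-200b-3p library was above every value of the other members, and the highest miR-141-3p library was below every other value. The ranges of miR-200c-3p and miR-200a-3p overlapped, as did those of miR-200a-3p and miR-429, and these neighbours were not separated by their spread. All 5 passed the filter of a mean of at least 10 CPM, which left 382 miRNAs for testing. In bulk libraries fewer cells with a miRNA and less of it per cell cannot be told apart. At this depth miR-141-3p rested on 12 to 115 reads a library and miR-200b-3p on 985 to 3816.

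The comparison of DMSO with Control asks whether 4SU labelling was detected on a miRNA within 4 h. It was detected on the most abundant members of both loci. In Control the T>C rate (conversions as a percent of covered T positions) of miR-200b-3p was 0, 0.00454, 0.0120 and 0% in replicates 1 to 4, and in DMSO it was 0.328, 0.291, 0.513 and 0.347%. All 4 DMSO libraries were above all 4 Control libraries, with 209 conversions among 61591 covered T positions against 2 among 50878. The log2 fold change of the conversions, with covered T as the exposure, was 6.22 ± 0.76 (SE, n = 4 against 4, adjusted p = 3.1e-15, edgeR's quasi-likelihood test with Benjamini-Hochberg adjustment over 382 miRNAs).

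miR-200a-3p was at 0, 0.0252, 0 and 0.205% in Control and at 0.757, 0.255, 0.541 and 0.296% in DMSO. The groups did not overlap, although the highest Control library, replicate 4, lay just under the lowest DMSO library. It rose by 2.95 ± 0.95 on the log2 scale (SE, adjusted p = 0.00548, edgeR). miR-200c-3p was at 0, 0, 0.0862 and 0% in Control and at 0.2497, 0.503, 0.490 and 0.256% in DMSO, again without overlap, and rose by 3.79 ± 1.23 on the log2 scale (SE, adjusted p = 0.00599, edgeR). Without DMSO replicates 1 and 2 the call was lost for miR-200a-3p (adjusted p = 0.0714) and miR-200c-3p (adjusted p = 0.0548, both edgeR).

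The remaining members had conversions in 3 of the 4 DMSO libraries each and were not called above Control. miR-429 was at 0.375, 0.194, 0.436 and 0% in DMSO and at 0, 0, 0.215 and 0% in Control, so the groups overlapped (log2 fold change 2.33 ± 1.41 SE, adjusted p = 0.164, edgeR), and without Control replicate 3, which holds both Control conversions, the adjusted p was 0.0328. miR-141-3p had 1, 3, 1 and 0 conversions in DMSO, or 0.190, 0.438, 0.463 and 0%, and none in Control (adjusted p = 0.194, edgeR). Its 807 covered T positions in Control without a conversion allow a rate of up to 0.372%, above the pooled DMSO rate of 0.334%, so no fold can be given. In all, 3 of the 5 members rose, where 45.8% of the tested miRNAs did, and the same 3 had no overlap between DMSO and Control, where 38.0% of the tested miRNAs were above Control in this way. The median log2 fold change was 2.99 over the members, or 3.37 without miR-141-3p, and 2.83 over all 382.

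The comparison of PlaB with DMSO asks how PlaB, an inhibitor of the splicing factor SF3B1, affected new synthesis. The study proposes that PlaB lowers miRNA synthesis mainly through transcription, and it found no significant difference between exonic and intronic miRNAs. Whether the position in an intron mattered for the members was not tested. The T>C rate of miR-200c-3p, from the chromosome 12 locus, was near the Control level under PlaB, and miR-200b-3p and miR-200a-3p, from the chromosome 1 locus, stayed labelled. In PlaB miR-200c-3p was at 0, 0.0852, 0.0617 and 0%, with every library below every DMSO library. The mean fell from 0.375% ± 0.141 to 0.0367% ± 0.0435 (SD, n = 4 each, exact two-sided permutation test p = 0.0286, the smallest that 4 against 4 allows). PlaB had 3 conversions among 7674 covered T positions, 2 of them in the same read, and DMSO had 49 among 13572, a pooled rate 9.24-fold lower in PlaB (exact 95% interval 2.98 to 46.3, counting error only).

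The fitted log2 fold change of miR-200c-3p was -3.13 ± 1.18 (SE, adjusted p = 0.0450, edgeR). This call was close to the threshold: the direction was the same in all 19 alternative fits, and the call held in 10 of them (adjusted p from 0.0217 to 0.241). It was lost with the experiment as a replicate block (adjusted p = 0.0706, edgeR), and without DMSO replicates 1 and 2 (adjusted p = 0.241). It was lost again with a filter at a mean of 1 CPM (adjusted p = 0.0870, edgeR). With 1 library removed at a time, 6 of 12 fits lost it, those without DMSO replicate 1, 2 or 3 or PlaB replicate 1, 3 or 4, with adjusted p up to 0.134. The log2 fold change in these 12 fits ran from -3.98 without PlaB replicate 2 to -2.75 without PlaB replicate 4. Compared with Control, PlaB was higher by 0.66 ± 1.45 on the log2 scale and was not called (SE, adjusted p = 1.0, edgeR).

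miR-141-3p, the neighbour of miR-200c-3p at the chromosome 12 locus, had no conversion in any PlaB library. Its 991 covered T positions in PlaB allow a rate of up to 0.303%, close to the pooled DMSO rate of 0.334%, so no fold is given. The fitted difference did not pass the threshold (adjusted p = 0.269, edgeR), and at this depth a fall of the size seen for miR-200c-3p could not be told from no fall, since the exact 95% interval of the pooled rate ratio ran from 0 to 1.65. In none of the 12 libraries did miR-141-3p have more than 3 conversions.

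miR-200b-3p was at 0.364, 0.227, 0.131 and 0.269% in PlaB, which overlaps the DMSO libraries only in PlaB replicate 1. The means were 0.370% ± 0.0983 in DMSO and 0.248% ± 0.0966 in PlaB (SD, n = 4 each, exact two-sided permutation test p = 0.143), and the log2 fold change was -0.56 ± 0.48 (SE, adjusted p = 0.476, edgeR). The pooled ratio of PlaB to DMSO was 0.731, and its exact 95% interval of 0.569 to 0.933, which covers counting error only and not the spread between libraries, lay below 1. All 4 PlaB libraries were above all 4 Control libraries (log2 fold change 5.67 ± 0.77 SE, adjusted p = 5.0e-12, edgeR).

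miR-200a-3p, encoded next to miR-200b-3p, was at 0.387, 0.705, 0.469 and 0.590% in PlaB, within the DMSO range of 0.255 to 0.757%. The mean was 0.538% ± 0.139 in PlaB and 0.462% ± 0.233 in DMSO (SD, n = 4 each, exact two-sided permutation test p = 0.571). The log2 fold change was 0.24 ± 0.78 (SE, adjusted p = 1.0, edgeR), and the exact 95% interval of the pooled ratio of PlaB to DMSO was 0.856 to 1.99. PlaB was above Control without overlap (log2 fold change 3.19 ± 0.95 SE, adjusted p = 0.00398, edgeR).

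miR-429, the third member of the chromosome 1 locus, was at 0.142, 0.249, 0.203 and 0% in PlaB, a mean of 0.148% ± 0.108 against 0.251% ± 0.196 in DMSO (SD, n = 4 each). It overlapped DMSO and did not pass the threshold against DMSO (log2 fold change -0.67 ± 1.24 SE, adjusted p = 0.869, edgeR) or Control (adjusted p = 0.518, edgeR). Its 8 conversions in PlaB and 22 in DMSO leave a pooled ratio between 0.260 and 1.57 (exact 95% interval).

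Of the 5 members, 1 fell with PlaB against DMSO, where 19.6% of the 382 miRNAs fell, and 1 had all PlaB libraries below all DMSO libraries, where 23.6% did. Against Control 2 of 5 were higher in PlaB, where 30.1% of the tested miRNAs were, and the same 2 did not overlap with Control, where 20.7% of the tested miRNAs were above it in this way. Over the members the median change from DMSO to PlaB was -0.67 on the log2 scale, or -0.56 with miR-141-3p taken at 3 conversions in PlaB, and -0.96 over all 382 miRNAs. The comparisons share the DMSO and the Control libraries and are not independent of each other.

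**Figure D1:**
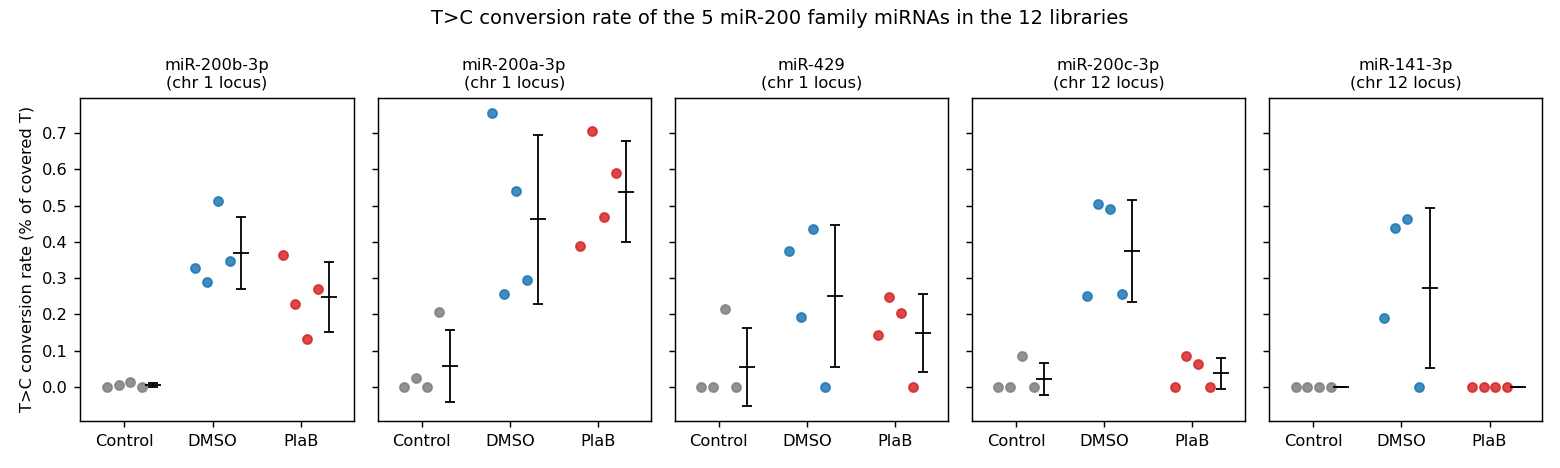
T>C conversion rate (percent of covered T positions) of each member in the Control, DMSO and PlaB libraries, 4 points per group in replicate order, with the mean and SD in black. The 4 PlaB points of miR-200c-3p lie between 0 and 0.0852%, below its DMSO points, and those of miR-200a-3p lie between 0.387 and 0.705%, within its DMSO range.

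Whether PlaB acted differently on miR-200c-3p than on the chromosome 1 members was tested within libraries. The measure was the log2 ratio of the T>C rate of miR-200c-3p to that of each such member, after adding 0.5 conversions. All 3 comparisons use the same miR-200c-3p rates, so they are not independent of each other. The chromosome 12 locus enters through this miRNA alone. Against miR-200b-3p the ratio was -0.35, 0.82, -0.02 and -0.35 in DMSO and -3.64, -1.11, -0.58 and -3.48 in PlaB, without overlap. The mean moved by -2.23 (exact two-sided permutation test p = 0.0286, adjusted over 3 comparisons p = 0.0286). Against miR-200a-3p it was -1.57, 0.97, -0.18 and -0.26 in DMSO and -3.84, -2.76, -2.51 and -4.64 in PlaB, a shift of -3.18 (exact permutation, adjusted p = 0.0286). Against miR-429 the shift was -2.54 (exact permutation, adjusted p = 0.0286), with DMSO values from -0.60 to 2.39 and PlaB values from -2.84 to -1.32.

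With 0.5 conversions added, these shifts are 4.68-, 9.04- and 5.82-fold falls of miR-200c-3p relative to miR-200b-3p, miR-200a-3p and miR-429, and 0.0286 is the smallest p that 4 against 4 libraries can give. Taken as 4 pairs of the same experiment, exact sign flips gave p = 0.125 for each, the smallest for 4 pairs. The size depends on the added conversions, since miR-200c-3p had 0 in PlaB replicates 1 and 4. With 1 added, the shifts were -1.64 (exact permutation, adjusted p = 0.0857), -2.58 and -2.06 (both exact permutation, adjusted p = 0.0429). Without DMSO replicates 1 and 2 the adjusted p was 0.133 for each (exact permutation). As a difference in percentage points the adjusted p was 0.0857 (exact permutation) for each, with shifts of -0.216, -0.414 and -0.235. miR-141-3p, with 0 conversions in PlaB, was not compared in this way.

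**Figure D2:**
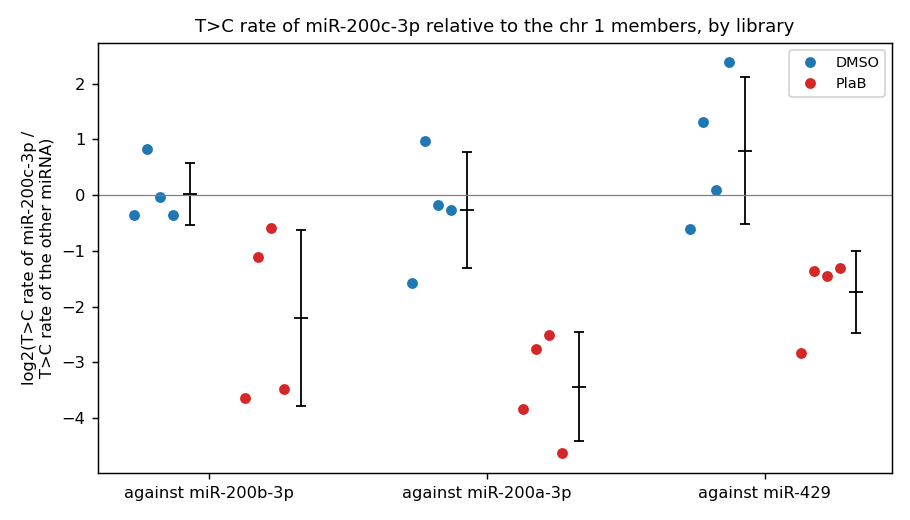
Log2 ratio of the T>C rate of miR-200c-3p to that of miR-200b-3p, miR-200a-3p or miR-429 in each DMSO and PlaB library, with the mean and SD in black. In each of the 3 comparisons, which share the same miR-200c-3p rates, the 4 PlaB points lie below the 4 DMSO points.

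Summed over each locus, the chromosome 1 members had a T>C rate of 0.372% ± 0.105 in DMSO and 0.283% ± 0.0773 in PlaB, and those of chromosome 12 had 0.368% ± 0.141 in DMSO and 0.0320% ± 0.0382 in PlaB (SD, n = 4 each). The chromosome 12 sum is mostly miR-200c-3p, which gave 49 of its 54 conversions in DMSO.

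After subtraction of the Control mean, PlaB kept 0.0429 of the DMSO rate of miR-200c-3p (± 0.171, SD carried over from the 3 groups), 0.667 ± 0.319 of that of miR-200b-3p and 1.19 ± 0.767 of that of miR-200a-3p. Of the 175 miRNAs that rose with 4SU, the median kept 0.337 of its DMSO rate, with quartiles of 0.174 and 0.658. Among those 175, 19 kept less than miR-200c-3p, 43 kept more than miR-200b-3p and 12 kept more than miR-200a-3p. The 175 were chosen by a DMSO rate above Control, and the DMSO rate also divides the ratio. A DMSO rate high by counting error thus both admits a miRNA and lowers its ratio, so the median and these ranks are a description. For miR-429 the ratio was 0.480 ± 0.779, from 0.310 without PlaB replicate 2 to 0.730 without PlaB replicate 4, and for miR-141-3p it was 0, both from miRNAs not called as labelled. The ratio of miR-200a-3p ranged from 1.01 to 1.57 when each library was left out, and that of miR-200c-3p from -0.00279 to 0.0980.

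**Figure D3:**
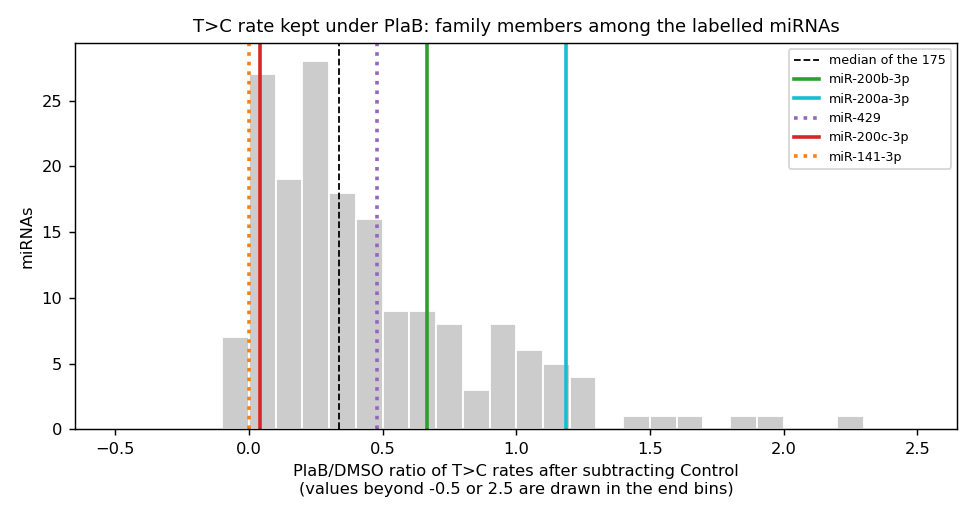
PlaB/DMSO ratio of T>C rates after subtraction of the Control mean for the 175 miRNAs labelled above Control (grey bars, number of miRNAs per bin), with the family members as coloured lines, dotted for miR-429 and miR-141-3p, which were not called as labelled. miR-200c-3p (0.0429) lies far below the median of 0.337, and miR-200b-3p (0.667) and miR-200a-3p (1.19) lie above it. The 175 were chosen through the DMSO rate that also divides the ratio.

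Other epithelial miRNAs fell in T>C rate with PlaB. Of the 4 tested, 3 fell, where 19.6% of the 382 miRNAs did, and all 4 had every PlaB library below every DMSO library, where 23.6% did. The 3 were miR-183-5p (log2 fold change -1.77 ± 0.34 SE, adjusted p = 5.8e-06), miR-96-5p (-2.22 ± 0.51 SE, adjusted p = 1.8e-04) and miR-182-5p (-1.35 ± 0.30 SE, adjusted p = 1.3e-04, all edgeR), which are made from 1 shared cluster. The fourth, miR-375-3p, was at 0.333% ± 0.0572 in DMSO and 0.0557% ± 0.0679 in PlaB (SD, n = 4 each) without overlap, and did not pass (adjusted p = 0.235, edgeR). All 5 hepatocyte markers passed as lower in PlaB, against the same 19.6%. They include both arms of the miR-122 hairpin and so are not independent of each other. The shares over the 382 miRNAs are not matched for depth. Of the 382, 150 lacked a conversion in PlaB, in DMSO or in both, while the hepatocyte markers and the 4 epithelial miRNAs had conversions in both. For miR-122-3p this was close to the threshold (adjusted p = 0.0491, with the replicate block 0.0999, edgeR) and held in 9 of 19 alternative fits, and for miR-148a-3p it held in 12 of 19.

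Read counts were compared to see whether 4 h of treatment changed the amount of the mature miRNAs. None of the 5 members was called as changed in any of the 3 comparisons (edgeR's quasi-likelihood test). With SEs of up to 0.42 on the log2 scale (miR-141-3p, PlaB against Control), changes too small to be called are not excluded. The background was 7.33% of the 382 miRNAs called for DMSO against Control, 0.524% for PlaB against DMSO and 8.12% for PlaB against Control. At an unadjusted p under 0.05 the count of members was also 0 in each, and DESeq2 called none. For PlaB against DMSO the log2 fold changes were 0.08 ± 0.31 for miR-200b-3p, -0.08 ± 0.38 for miR-200a-3p, -0.16 ± 0.32 for miR-429, -0.15 ± 0.13 for miR-200c-3p and 0.19 ± 0.41 for miR-141-3p (SE, adjusted p from 0.913 to 0.990, edgeR). The median over the members was -0.08 and over all 382 miRNAs -0.05. For miR-200c-3p the DMSO libraries averaged 202 CPM ± 17.2 and the PlaB libraries 183 CPM ± 11.7 (SD, n = 4 each, exact two-sided permutation test p = 0.114), while its T>C rate fell.

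The levels of the chromosome 1 members differed between the experiments. In experiment 2 miR-200b-3p was at 1325 CPM in Control, 1165 in DMSO and 1216 in PlaB, and in the other 9 libraries it was between 528 and 806 CPM. miR-200a-3p was at 239, 258 and 216 CPM in experiment 2 and between 76.6 and 189 CPM in the others, and miR-429 was at 124, 160 and 148 CPM and between 61.2 and 99.7 CPM. For all 3 members every library of experiment 2 was above every library of the other experiments, by 1.87-, 1.93- and 1.84-fold in the means.

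miR-200c-3p did not share this. It was at 161, 183 and 198 CPM in experiment 2 and between 163 and 224 CPM in the others, a ratio of the means of 0.942. miR-141-3p was at 17.1, 35.1 and 24.8 CPM in experiment 2 and overlapped the others (6.10 to 30.1 CPM). In a model with the treatment as a further term, reads differed between the 4 experiments for 20.4% of the 382 miRNAs. They did for miR-200b-3p (largest difference between 2 experiments 1.06 on the log2 scale, adjusted p = 1.8e-05), miR-200a-3p (1.43, adjusted p = 9.5e-04) and miR-429 (1.06, adjusted p = 0.00300, all edgeR). They did not pass for miR-200c-3p (0.08, adjusted p = 0.960, edgeR) or miR-141-3p (1.01, adjusted p = 0.347, edgeR).

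Without experiment 2, a comparison added after the values were seen, the adjusted p was 0.292 for miR-200b-3p, 0.194 for miR-200a-3p and 0.783 for miR-429 (edgeR). Of all 382 miRNAs, 15 (3.93%) had the 3 libraries of experiment 2 above the other 9, and 15 had them below. That experiment 2 stands apart was seen in these data, so this order is a description. Whether the loci differ in their response to the experiment was not tested. In DMSO, experiment 2 had the lowest T>C rate of the 4 libraries for miR-200b-3p (0.291%) and miR-200a-3p (0.255%), and miR-429 (0.194%) was within the range of the others. In PlaB, experiment 2 had the highest rate for miR-200a-3p (0.705%) and miR-429 (0.249%), and miR-200b-3p (0.227%) was within the range of the others.

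**Figure D4:**
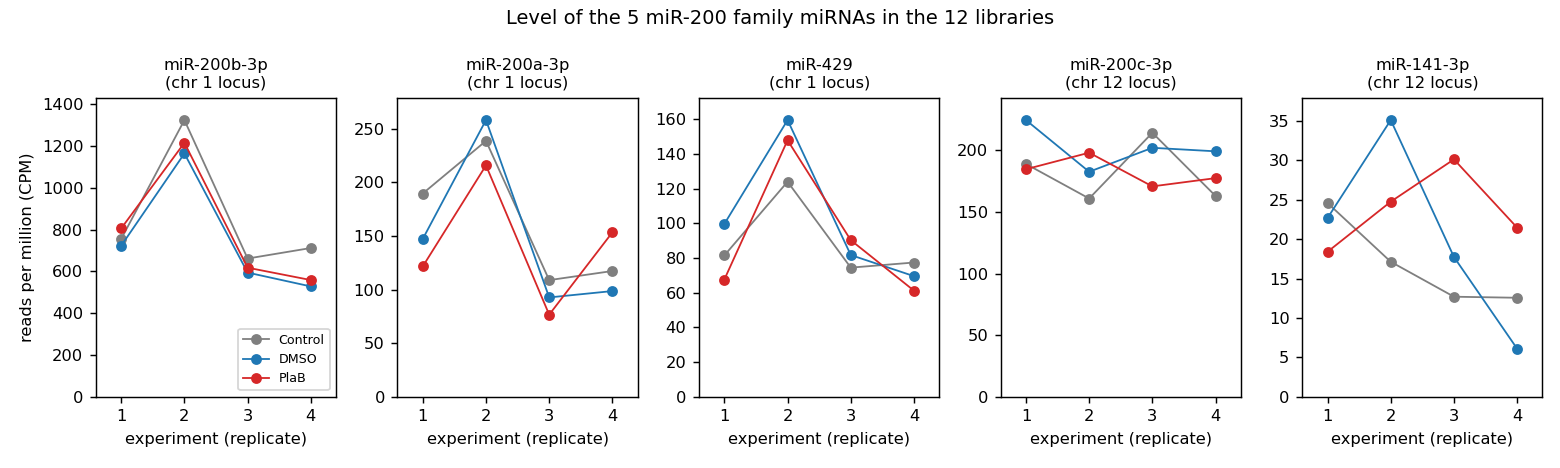
Level in CPM of each member in experiments 1 to 4, with 1 line each for Control, DMSO and PlaB and a separate axis from 0 for each member. In the 3 chromosome 1 members all 3 lines peak in experiment 2, and in miR-200c-3p they stay between 161 and 224 CPM.

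Across the 12 libraries the log2 CPM of the chromosome 1 members moved together, with Pearson's r of 0.83 for miR-200b-3p and miR-200a-3p, 0.85 for miR-200b-3p and miR-429 and 0.68 for miR-200a-3p and miR-429. For miR-200c-3p and miR-141-3p r was -0.13, with few reads of miR-141-3p, and across the loci it ran from -0.27 to 0.53. These points share experiments and library totals, so r is a description. Among the 178 miRNAs with a mean of at least 100 CPM, those most like miR-200b-3p were miR-365b-3p (r = 0.86), miR-23a-3p (0.85) and miR-200a-3p (0.83). Those most like miR-200a-3p were miR-27b-3p (0.89), miR-200b-3p (0.83) and miR-193b-3p (0.77), and those most like miR-200c-3p were miR-340-5p (0.70), miR-92b-3p (0.65) and miR-10b-5p (0.57).

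The opposite (5p) arms of the hairpins, which are mostly discarded when the 3p arm is loaded into Argonaute, were scarcer. They are shown for the 2 hairpins of the chromosome 1 locus with enough reads to test, seed in capitals.
miR-200b-5p: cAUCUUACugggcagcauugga
miR-200a-5p: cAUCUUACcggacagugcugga
The share of hairpin reads on miR-200a-5p was 21.1% ± 3.99 in the Control, 13.7% ± 0.956 in the DMSO and 14.04% ± 9.03 in the PlaB libraries (SD, n = 4 each). For miR-200b-5p the shares were 2.70% ± 0.904, 1.32% ± 0.0672 and 1.48% ± 0.739. miR-200c-5p had 3, 9, 2 and 1 reads in the Control libraries and none in the 8 libraries with 4SU. Pooled over the groups, the Control level was 6.75-fold that of DMSO and 4.24-fold that of PlaB when each of these was taken at 3 reads. These folds leave out the counting error of the 15 Control reads and are not lower limits. miR-200c-5p was below the filter of a mean of at least 10 CPM and was not tested. miR-141-5p had 18 reads in Control, 21 in DMSO and 2 in PlaB.

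miR-200b-5p was at 31.8, 28.4, 14.9 and 18.01 CPM in Control and at 10.3, 14.7, 7.88 and 7.11 CPM in DMSO, all 4 DMSO libraries below all 4 Control libraries. The log2 fold change was -1.18 ± 0.43 (SE, adjusted p = 0.131, edgeR), and with the experiment as a replicate block it passed the threshold (adjusted p = 0.02996). Of the 382 miRNAs 9.69% were lower in DMSO without overlap. miR-200a-5p was at 40.2, 61.8, 39.7 and 28.5 CPM in Control and at 12.5, 28.3, 28.9 and 13.1 CPM in PlaB, which overlap in PlaB replicate 3. PlaB against Control gave -1.02 ± 0.41 on the log2 scale (SE, adjusted p = 0.221, edgeR), and with the replicate block adjusted p = 0.0419.

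**Figure D5:**
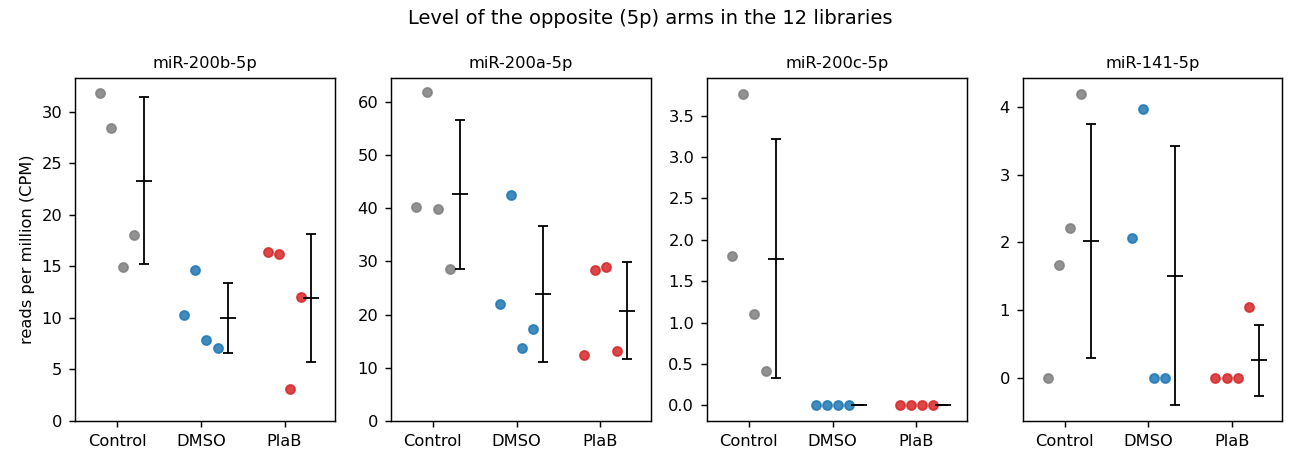
Level in CPM of the 5p arms in the Control, DMSO and PlaB libraries, 4 points per group in replicate order, with the mean and SD in black and a separate axis for each arm. miR-200c-5p is at 0 in all DMSO and PlaB libraries, and the DMSO points of miR-200b-5p (7.11 to 14.7 CPM) lie below its Control points.

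The T>C rate of miR-200a-5p was above that of miR-200a-3p from the same hairpin. In DMSO the 5p arm was at 3.53, 2.45, 5.0 and 1.19%, a mean of 3.04% ± 1.62 against 0.462% ± 0.233 for the 3p arm (SD, n = 4). It was higher in 4 of 4 libraries (exact two-sided sign flips p = 0.125, the smallest for 4 pairs), on 41 conversions among 1427 covered T positions. In PlaB it was at 4.21, 5.0, 0 and 0%, higher than the 3p arm in 2 of 4 libraries. miR-200a-5p rose in DMSO against Control (log2 fold change 3.74 ± 1.13 SE, adjusted p = 0.00297, edgeR) and in PlaB against Control (3.37 ± 1.16 SE, adjusted p = 0.0144, edgeR), the latter lost with the replicate block (adjusted p = 0.0753). PlaB against DMSO gave -0.38 ± 0.96 (SE, adjusted p = 0.986, edgeR).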

How the data were processed

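The deposited tables, 1 per library, hold counts (reads, T>C reads, conversions, covered T positions), a CPM value and a T>C rate as a fraction for each mature miRNA. The authors ran the nf-core SLAMseq pipeline (SLAM-DUNK) against GRCh38. They trimmed 4 bases from the 3′ end and 4 from the 5′ end of the reads, to take off the randomized adapter bases. Reads up to 30 bases and multi-mapping reads were kept, and SNPs were masked. Masking and short reads limit the conversions seen. The members and gene lists were chosen with earlier results of these data known. They were the members, their 5p arms, the epithelial and cell type markers, and the 3 miRNAs most like each of the 3 members with a mean of at least 100 CPM.

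Reads (TMM factors) and conversions (log covered T as offset) were fitted with edgeR 4.0.16 over all 12 libraries for 382 miRNAs with a mean of at least 10 CPM. An adjusted p under 0.05 was a call. Each SE given for edgeR was the size of the log2 fold change divided by the square root of the test's F statistic, so it restates the test. Alternatives included DESeq2 1.42.0. On simulated data for PlaB against DMSO (382 miRNAs), 25% of 2-fold and 33% of 4-fold falls in conversions were called, and 1.10% of unchanged miRNAs. In reads 91.8% of 2-fold falls were. The simulated spread between libraries was a set value, the same for all miRNAs, and was not estimated from these data. These shares thus do not give how often a fall of a member would be called.

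Replicate numbers pair the conditions of 4 independent experiments, per the methods and the shared numbers of the labels. Same-numbered libraries deviated together in log2 CPM with median r of 0.216, 0.188 and 0.249 between the 3 pairs of conditions (lowest -0.225), against -0.028 to -0.103 for other numbers. In the log2 T>C rate the medians were -0.0064, 0.0591 and -0.0133, against -0.0428 to 0.0057 for other numbers. The rates thus did not clearly show the pairing. Intervals and limits cover counting error only, and a count of 0 was read as up to 3. They take each conversion as independent, although the 49 DMSO conversions of miR-200c-3p lay in 41 reads, so they can be too narrow.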

Additional observations from a re-analysis of the deposited data

Results flagged for a closer look

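Within groups of 4 libraries, 28 sets of CPM values or T>C rates of the members were tested for a value far from the other 3, and 5 had one. A chance rate of about 1 in 20 holds for independent, continuous values, so it cannot be set against this count. A set at 0 in all but 1 library always has such a value, as for the Control T>C rates of miR-429 and miR-200c-3p. miR-200b-3p in Control replicate 2 was at 1325 CPM, with the other Control libraries between 662 and 755.5 CPM. miR-429 in the same library was at 124 CPM, against 74.5 to 81.6 CPM. Both belong to experiment 2, in which the DMSO and PlaB libraries were also the highest of their groups. Their part in the comparisons of reads with Control is seen without that library: the log2 fold change of miR-200b-3p in DMSO against Control moved from -0.18 to 0.09, and that of miR-429 from 0.22 to 0.40, with no call in either case (edgeR).

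Of the 5, 3 were T>C rates in Control, where no 4SU was added. miR-200a-3p in Control replicate 4 was at 0.205% (4 conversions), against 0 to 0.0252% in the other Control libraries. Without replicate 4 its log2 fold change moved from 2.95 to 4.74 in DMSO against Control and from 3.19 to 4.98 in PlaB against Control, with the call kept in both (edgeR). In Control replicate 3, miR-429 was at 0.215% and miR-200c-3p at 0.0862%, each from 2 conversions, and both were at 0 in the other 3. Without replicate 3 the log2 fold change of DMSO against Control was 5.04 for miR-429, 6.26 for miR-200c-3p and 6.82 for miR-200b-3p, against 2.33, 3.79 and 6.22 with it.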

How the results depend on the processing

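For T>C conversions the members kept their direction and call in every alternative fit, with these exceptions. miR-200c-3p lost its call for PlaB against DMSO in 9 of 19 fits. Without DMSO replicates 1 and 2, miR-200a-3p and miR-200c-3p lost theirs for DMSO against Control, and miR-429 gained one without Control replicate 3. For PlaB against Control, miR-200c-3p ranged from -0.18 (without PlaB replicate 2) to 3.12 (without Control replicate 3) on the log2 scale. Few conversions limit these calls, above all for miR-141-3p and miR-429, and the causes of the changes below were not tested.

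Of 382 miRNAs, the 28 called in reads for DMSO against Control became 8 among miRNAs over 100 CPM in every library, where fewer were tested, 55 with the replicate block and 15 without DMSO replicates 1 and 2. The 2 for PlaB against DMSO became 1 with library totals alone and 1 over 100 CPM, 6 with DESeq2, 7 with the replicate block, and 0 with a filter at a mean of 1 CPM, with 8 libraries only or without DMSO replicates 1 and 2. The 31 for PlaB against Control became 6 over 100 CPM. The 75 called in conversions for PlaB against DMSO became 43 without DMSO replicates 1 and 2. The 78 that differed between experiments became 14 without experiment 2, a choice made after seeing the data. The block changed no other call of a member than that of miR-200c-3p.

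Relative to miR-200b-3p, miR-200a-3p and miR-429, the shift of miR-200c-3p was -0.216, -0.414 and -0.235 in percentage points (adjusted p = 0.0857), -2.23, -3.18 and -2.54 with the replicate block (sign flips, p = 0.125), and -2.02, -3.21 and -2.98 without DMSO replicates 1 and 2 (adjusted p = 0.133, all exact permutation). With 1 conversion added, the first was -1.64 (exact permutation, adjusted p = 0.0857).

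In reads, where no member was called, the log2 fold change turned without DMSO replicates 1 and 2 for DMSO against Control (miR-429 -0.21, miR-141-3p -0.44) and for PlaB against DMSO (miR-200a-3p 0.57, miR-429 0.28), and with the replicate block for PlaB against Control (miR-429 -0.00163).

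With each library left out in turn, calls in reads ranged from 17 to 31 (DMSO against Control), 0 to 2 (PlaB against DMSO) and 27 to 33 (PlaB against Control), calls in conversions from 153 to 181, 54 to 85 and 97 to 115, and calls between experiments from 50 (without DMSO replicate 2) to 87. The fewest calls in reads for DMSO against Control came without DMSO replicate 3. The 3 relative shifts ranged from -2.77 to -1.75, -3.61 to -2.77 and -3.01 to -2.01 (exact permutation, adjusted p = 0.0571, the smallest for 3 against 4). Log2 fold changes in reads for DMSO against Control ran from -0.51 to 0.0851 for miR-200b-3p, -0.54 to 0.11 for miR-200a-3p, -0.11 to 0.40 for miR-429 and -0.10 to 0.61 for miR-141-3p. For PlaB against DMSO they ran from -0.20 to 0.42, -0.35 to 0.37, -0.51 to 0.18 and -0.0813 to 0.64 for the same members. For PlaB against Control they ran from -0.39 to 0.20, -0.47 to 0.0685 and -0.29 to 0.27 for the chromosome 1 members, and -0.0182 to 0.11 for miR-200c-3p.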
